A study of Homo sapiens with 27 samples.

Results

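N1-methyladenosine (m1A) was profiled in HepAD38 cells by antibody enrichment of RNA, and the pooled immunoprecipitate (IP) is described here against its pooled input at every peak of the deposited m1A list. The members are all 29708 listed peaks, out of 68477 peaks in the m1A, m5C (5-methylcytidine) and m7G (7-methylguanosine) lists used here. HepAD38 is a human liver tumour line with an integrated genome of hepatitis B virus (HBV). The labels give wild-type genotype and liver origin, with 3 m1A IP and 3 m1A input libraries of total RNA from the same line and no second condition. The labels do not say whether the HBV transgene was induced or whether the 3 libraries of each kind stem from separate cultures. The study asked whether RNA modifications take part in evolution. Each peak has a single IP value and a single input value pooled over libraries, given as depth-scaled reads (RPM). No value below therefore has a replicate error. The intervals below are exact 95% Clopper-Pearson limits and cover counting error only.

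m1A is an adenosine with a methyl group on the nitrogen that takes part in base pairing, which gives the base a positive charge and stops ordinary pairing. It is best known from the T loop of transfer RNAs, where the TRMT6 and TRMT61A complex places it in a GUUCRA-like context, and from mitochondrial and ribosomal RNA. In messenger RNA it has been reported towards the 5′ end and near start codons, and its extent there has been debated. Readers of the YTHDF family and demethylases such as ALKBH3 have been described as handling it.

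The RPM ratio, IP over input, ran from 0.209 to 979 among peaks with input reads, and 2 features at transcript starts went with it, position and GC content. The first 30 bases of 8 transcripts show the 2 ends of that range. They are the starts with the highest and the lowest ratio among 1329 peaks that covered at least 30 of the first 50 bases of an annotated protein-coding start, had at least 50 input reads and overlapped no peak of the opposite strand. Sequences are RefSeq, GRCh38.p14, 5′ to 3′ on the transcript's strand, and capitals mark runs of 4 or more G or C.
ARF6, chr14:49893082-49893111, plus strand: CCGGCaGCGGCGGCGGCagaactgggagga
NME4, chr16:397199-397228, plus strand: acaGCGGCCCGCGGGCCGGGCGtcatGGGC
NRIP1, chr21:15064971-15065000, minus strand: agacattgcagcagaGCCCCGaactCGGGa
TOMM40, chr19:44891254-44891283, plus strand: cggttGCGCGtGGCGCaCGGGGtgggagcg
HNMT, chr2:137964473-137964502, plus strand: ctttctcagaaaaccaaatatggcatcttc
AFP, chr4:73436221-73436250, plus strand: attgtgcttccaccactgccaataacaaaa
NAP1L1, chr12:76084656-76084685, minus strand: cttttttaGCGCCatctgctCGCGGCGCCG
FGG, chr4:154612627-154612656, minus strand: gacagtgctgacactacaaggctcggagct

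The upper 4 starts had RPM ratios of 219 (ARF6, 95% interval 191 to 253), 169 (NME4, 136 to 212), 148 (NRIP1, 124 to 178) and 142 (TOMM40, 116 to 176). ARF6 encodes a small GTPase of membrane traffic, NME4 a mitochondrial nucleoside diphosphate kinase, NRIP1 a nuclear receptor corepressor and TOMM40 the channel of the outer mitochondrial membrane. The GC content of their first 50 bases was 72% to 80%. The lower 4 starts had ratios of 0.304 (HNMT, 0.294 to 0.315), 0.315 (AFP, 0.306 to 0.324), 0.317 (NAP1L1, 0.315 to 0.318) and 0.339 (FGG, 0.328 to 0.349). HNMT inactivates histamine, AFP is the fetal liver secretory protein alpha-fetoprotein, NAP1L1 is a histone chaperone and FGG is the gamma chain of fibrinogen. HNMT and AFP each had 40% GC in the first 50 bases, FGG 58% and NAP1L1 68%. NAP1L1 has runs of G and C that the other 3 low starts lack, and its peak spans 1245 bases of transcript, far beyond the start.

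A second set of starts was printed because it holds the T-loop motif, searched as GTTCAA or GTTCGA on the transcript strand of the first 50 bases and shown in capitals. These are the 4 with the highest IP RPM among the 10 of those 1329 peaks with the motif.
PDAP1, chr7:99408568-99408597, minus strand: ggtgtcaGTTCGAggcgccgccgccgccgc
ZRANB2, chr1:71080986-71081015, minus strand: ctgtgctggtggcGTTCAAgatgtcgacca
YBX1, chr1:42682418-42682447, plus strand: attctcgctaGTTCGAtcggtagcgggagc
PIN4, chrX:72181757-72181786, plus strand: ggttcagcGTTCAAcaacaagcttccaaga

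Their ratios did not sit at 1 end of the range. YBX1, a cold-shock protein that binds RNA, stood at 22.7 (22 to 23.4), PDAP1 at 1.57 (1.57 to 1.58), the isomerase gene PIN4 at 1.25 (1.22 to 1.27) and the splicing-associated ZRANB2 at 0.794 (0.787 to 0.802). The peaks of PDAP1, ZRANB2 and PIN4 span 550, 716 and 425 bases of transcript, far beyond the start. That of YBX1 spans 250 bases. These ratios therefore describe whole peaks and not the motif site alone. Of 2202 listed peaks that overlapped the first 50 bases of an annotated start, 15 (0.681%) had the motif there, against 0.794% of all 35116 annotated starts of the RefSeq table. With the window widened to 300 bases and both strands, 8.86% of these peaks and 9.63% of all starts had it. A match is only a match of letters, and no match says only that these letters are not in the window.

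Most m1A peaks were higher in the IP, and about 1 in 3 were higher in the input. All 29708 listed peaks had a log2 enrichment above 0 in the authors' deposited table. A majority on the IP side is therefore partly built in. The median ratio was 1.67, with quartiles of 0.783 and 4.35. A ratio of 2 or more was found at 13288 peaks, which is 44.7% of the list, and a ratio of 0.5 or less at 3197 peaks, or 10.8%. At 9789 peaks (33%) the input RPM was above that of the IP. The upper side reached far, with 4243 peaks at 8 or more and 791 at 32 or more, while only 39 peaks were at 0.25 or less. Another 58 peaks had no input read and have only a lower bound, taken against a floor of 3 pooled reads. These shares describe the pooled libraries, and with a single pooled value per side no test across replicates could be run.

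The 2 other lists had other shapes. In the m5C list the median ratio was 1.01, with 32.1% of 21827 peaks at 2 or more and 28% at 0.5 or less. In the m7G list the median was 1.36, with 37.6% of 16942 peaks at 2 or more and only 8 peaks at 0.5 or less. The share at 2 or more was 12.6 percentage points higher for m1A than for m5C, but 1.02 points lower once each list was centred on its own median. Against m7G the m1A share was 7.17 points higher, and 2.07 after centring. The libraries differ in depth, and its part in these differences was not tested.

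The authors deposited their own log2 enrichment for each peak, which differs from the log2 of the RPM ratio. In the authors' deposited table every m1A peak had a log2 enrichment above 0, from 0.13 upward, with a median of 2.06. The largest p-value in that table was 9.996e-11, so the list holds only peaks below that value. Over the 29650 peaks with input reads, the authors' log2 enrichment in the deposited table had a Pearson correlation of 0.686 and a Spearman correlation of 0.697 with the log2 RPM ratio. The points share their reads and libraries, and peaks are not independent replicates. The median difference, the authors' deposited value minus the log2 ratio, was 1.54, and the outer deciles of that difference were -0.72 and 2.47. At 1304 peaks the authors' deposited log2 enrichment was above 2 although the IP had less RPM than the input. The sources used here do not say how the authors' enrichment was computed.

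The median ratio moved with the level of the input and hardly with that of the IP. Across deciles of input RPM the median ratio was 7.04 in the lowest decile and 0.696 in the highest. Across deciles of IP RPM it lay between 1.6 and 1.75 in all 10. The share of peaks at 0.5 or less did differ among IP deciles, from 1.41% in the lowest to 14.6% in decile 8. The input is the denominator of the ratio, so an order by input is partly built in. Over 7 classes of peak width the medians lay between 1.39 and 1.84, with 1.74 for peaks of 25 bases and 1.65 for more than 1000 bases. The strands were alike, with medians of 1.7 on the plus strand and 1.64 on the minus strand.

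The clearest pattern along genes was the 5′ end. The 1717 peaks whose midpoint lay within 500 bases of the 5′ end of a gene's RefSeq span had a median ratio of 7.37 (quartiles 3 and 18.4). Of them 1444 (84.1%) were at 2 or more and 8 were at 0.5 or less. The 25550 peaks between the ends had a median of 1.53 (quartiles 0.741 and 3.82), with 41.6% at 2 or more. The 1717 peaks within 500 bases of the 3′ end had a median of 2.02 (quartiles 0.984 and 4.57), with 50% at 2 or more. The quartile ranges of the 5′ peaks and of the peaks between overlap between 3 and 3.82 only. On the log2 scale the 5′ peaks stood 2.25 above all other placed peaks. Distances are genomic and include introns, so a peak that covers the start and spans an intron can be placed far inside the gene. The 2202 peaks that overlapped the first 50 bases of an annotated start had a lower median ratio, 3.91, with 69.35% at 2 or more.

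The fall with distance was graded. The median ratio was 8.16 within 200 bases of the 5′ end, 6.42 from 200 to 500 bases and 4.03 from 500 to 1000. It was 2.65 from 1000 to 2000 bases, 2.03 up to 5000, 1.91 up to 10000, 1.48 up to 50000 and 1.15 beyond. Within 200 bases the median density was 50 IP RPM per kilobase of peak against 5.48 for the input, and between the ends, with this window, 20.3 against 10.7. Both sides therefore differed, the IP density being higher and the input density lower at the 5′ end. Within quintiles of input density the 5′ peaks still stood above the others, by 1.48, 1.70, 1.87, 2.196 and 2.06 on the log2 scale from the lowest to the highest quintile.

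The authors' deposited enrichment showed little of this. In the authors' deposited table the median log2 enrichment was 2.25 within 500 bases of the 5′ end and 2.02 between the ends, a 5′ difference of 0.20 against all other placed peaks. Within quintiles of input density the difference in the authors' deposited values was below 0 in each of the 5, from -0.19 to -0.04. The size of the 5′ difference thus depended on the measure, and within quintiles its direction did too. The cause of the gap between the measures was not tested.

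The m7G list had a 5′ pattern in both measures and the m5C list had the opposite one in the ratio. Near the 5′ end the median m7G ratio was 3.67 over 3104 peaks, against 1.18 between the ends, and the authors' deposited log2 enrichment was 2.40 against 1.15. Near the 5′ end the median m5C ratio was 0.5 over 1488 peaks, against 1.03 between the ends, while the authors' deposited m5C log2 enrichment was higher there, 2.84 against 2.49. The 3 lists were compared as medians over peaks, without a test, since peaks of a list share their libraries.

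The same order held inside single genes. Of 6299 genes with 2 or more placed peaks, the peak nearest the 5′ end had a higher ratio than the peak nearest the 3′ end in 4627 (73.5%), by a median factor of 1.96. In the authors' deposited table the peak nearest the 5′ end was the higher in 3408 (54.1%). Where the first peak lay within 500 bases of the 5′ end, it was the higher in 1126 of 1242 genes (90.7%), by a median factor of 5.18. By the authors' deposited enrichment it was the higher in 705 of those genes (56.8%). The m7G list gave 89.95% and the m5C list 32.3% of genes with the first peak higher by ratio. Within genes with several peaks the highest ratio was a median 4.11 times the lowest, and 890 genes had both a peak at 2 or more and a peak at 0.5 or less. Differences within genes made up 40.6% of the variance of the log2 ratio.

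The 5 genes with the most peaks show how differently a transcript can be covered. LRP1, a large endocytic receptor of hepatocytes, had 45 peaks with ratios from 1.41 to 33.8, and 39 of them were at 2 or more. Its ratio of 33.8 rested on 78 IP reads and 3 of the input (11.15 to 167.4), and its next highest was 11.04. LAMA5, a laminin chain of basement membranes, had 37 peaks from 10.9 to 222, all above 2. KMT2D, a histone H3 methyltransferase, had 32 peaks from 1.61 to 43.9. In these 3 genes no peak had a ratio below 1, from the 5′ to the 3′ end. APOB, the structural protein of very-low-density lipoprotein, had 26 peaks from 0.269 to 1.54, and 24 of them lay below 1. Its highest ratio, 1.54 (1.52 to 1.56), belonged to the peak nearest the 5′ end. MKI67, which encodes the proliferation marker Ki-67, had 25 peaks, and 24 of them lay between 0.329 and 0.824. Its first peak, at 1.63% of the gene span, rested on 265 IP reads and 13 of the input, a ratio of 26.5 (15.2 to 50.4).

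**Figure D1:**
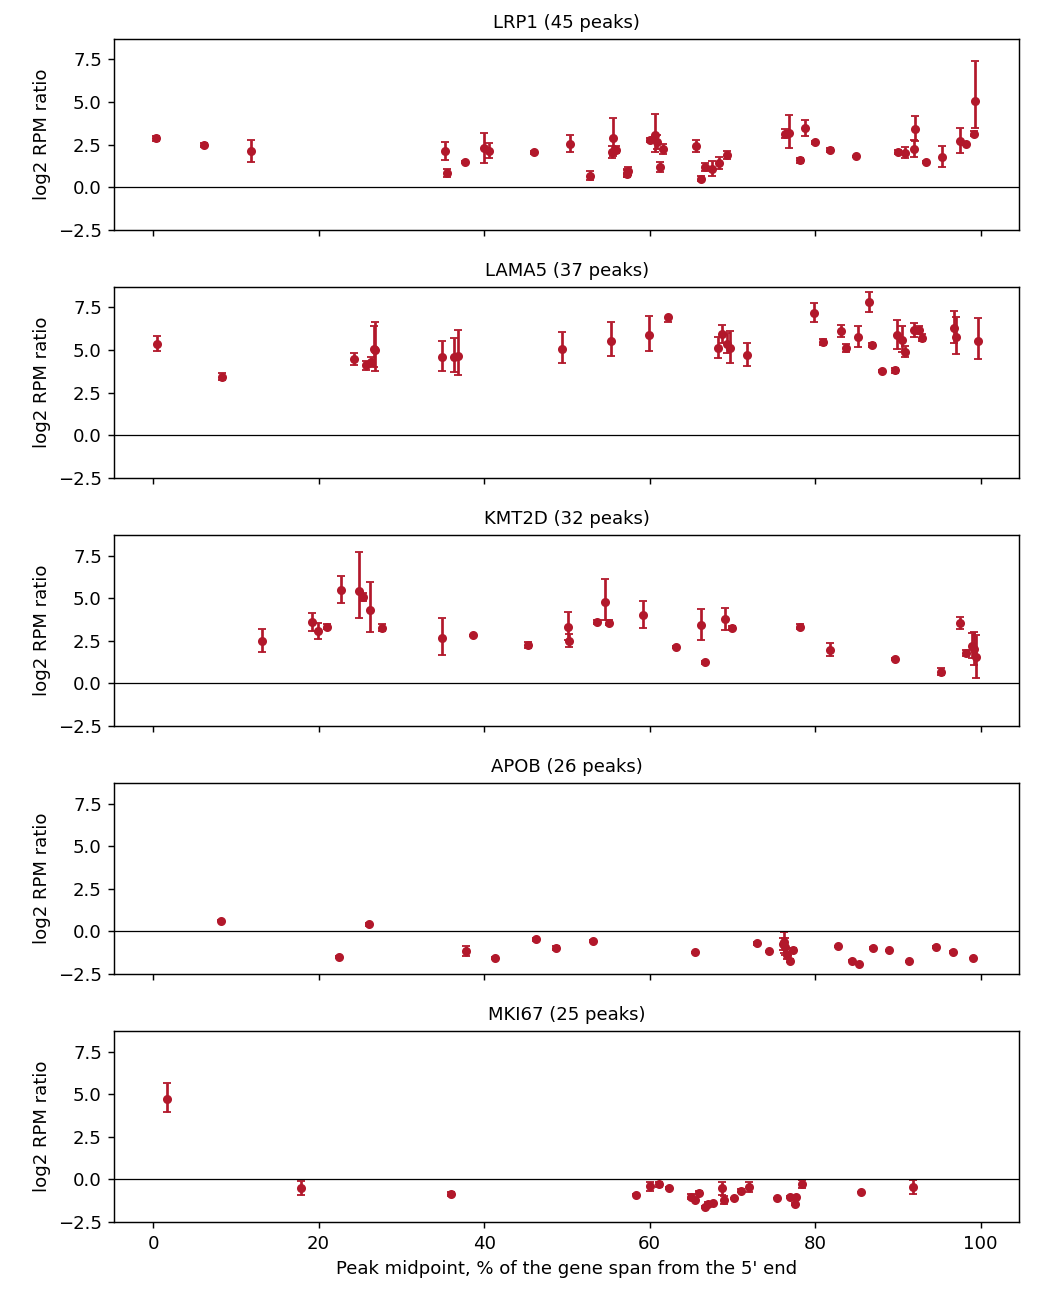
Log2 RPM ratio of each m1A peak (points, bars show 95% exact intervals from counts) against the position of its midpoint in percent of the gene span from the 5′ end, for the 5 genes with the most peaks. All peaks of LRP1, LAMA5 and KMT2D lie above 0, those of APOB mostly below, and MKI67 has a single high peak at its 5′ end with all 24 others below 0.

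GC content at the start moved with the ratio. Among the 2202 peaks that overlapped the first 50 bases of an annotated start, in 2108 genes, the median ratio was 3.91 and 69.3% were at 2 or more. The Spearman correlation between GC of those 50 bases and the log2 ratio was 0.36 over the 2202 peaks, as a description. The median ratio was 1.91 at 205 starts under 50% GC, 2.56 at 489 starts from 50% to 60% and 3.83 at 892 starts from 60% to 70%. It was 7.32 at 528 starts from 70% to 80% and 9.96 at 88 starts of 80% or more. The median IP density was 24.1 RPM per kilobase in the lowest bin and 142 in the highest, while the input density was 10.6 and 13.4. With the authors' deposited log2 enrichment the correlation was 0.02, and the 5 bin medians ran from 2.17 to 2.45.

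In the other lists, each taken over its own start peaks, the correlation was below 0. For m7G the correlation of GC with the ratio was -0.11 over 4391 peaks, and for m5C it was -0.12 over 1373 peaks. GC is known here only at annotated starts, since no genome sequence was used, and peaks elsewhere were not examined for it. Whether the base composition of the RNA or the handling of the libraries goes with the ratio was not tested.

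**Figure D2:**
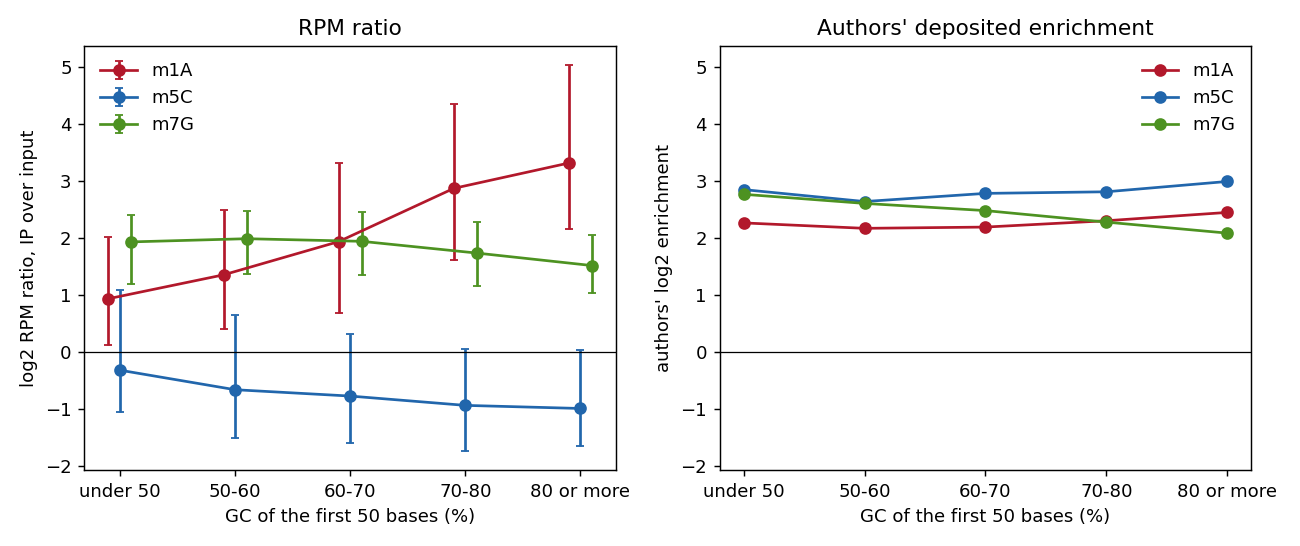
Median log2 RPM ratio (left, bars span the quartiles over peaks) and median authors' deposited log2 enrichment (right) of peaks overlapping the first 50 bases of an annotated start, by GC percent of those bases (horizontal axis), for m1A, m5C and m7G. The m1A ratio climbs from 0.94 to 3.32 on the log2 scale from the lowest to the highest GC bin, and neither of the other lists climbs.

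Chromosomes differed as well. The median m1A ratio was 4.2 over 1837 peaks of chromosome 19, where 74.3% were at 2 or more. It was 2.7 on chromosome 16, 2.58 on chromosome 22 and 2.27 on chromosome 17. The lowest medians were 1.11 on chromosome 4 and 0.993 on chromosome 18, where 24.7% were at 2 or more. Over 22 chromosomes with annotated starts in the table, the mean GC of the first 50 bases of all starts had a Pearson correlation of 0.858 and a Spearman correlation of 0.756 with the median log2 ratio, given as a description. For the authors' deposited enrichment the Pearson correlation with the same GC was 0.79, with medians within 0.51 of each other on the log2 scale. The range of the median log2 ratio was 2.08. Chromosome 8, with 894 m1A peaks, had no starts available and is not among the 22.

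Long non-coding RNAs were close to protein-coding transcripts. The 28092 peaks in protein-coding genes had a median ratio of 1.66 and the 615 peaks in long non-coding RNA genes one of 1.91, with 44.6% and 49.1% at 2 or more. The 285 peaks of transcribed pseudogenes had a median of 1.78. Pseudogenes share sequence with their parent genes, and the sources used here do not say how such reads were assigned.

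To name the peaks with the highest ratios, peaks with at least 10 input reads were ordered by the lower limit of their interval. PLEC, which encodes the cytoskeletal linker plectin, came first, with a peak at chr8:143915928-143916177 of 14.3 IP RPM against 0.0438 input RPM, a ratio of 326 (201 to 572). ARF6 followed, with 123 IP RPM against 0.562 input RPM. LAMA5 had a peak at chr20:62316901-62317000 of 15.8 against 0.0713 RPM, a ratio of 222 (151 to 340). COL9A3, a collagen IX chain, stood at 162 (143 to 184) and COL18A1, the collagen XVIII chain that gives rise to endostatin, at 209 (128 to 366). The epiplakin gene EPPK1 stood at 194 (131 to 301), TNRC18 at 221 (139 to 373), and the alanine aminotransferase gene GPT2 at 174 (129 to 239). ANTKMT, a mitochondrial lysine methyltransferase, stood at 177 (131 to 246).

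These peaks were not all at the 5′ end. The midpoints for ARF6, ANTKMT and GPT2 lay 161, 87 and 268 bases from the 5′ end of the span, and that for NME4 682 bases. PLEC, LAMA5, EPPK1 and TNRC18 had theirs more than 20000 bases away, at 60692, 50362, 20382 and 31328 bases. Input reads behind these ratios were few, from 16 for PLEC and COL18A1 to 243 for COL9A3, which sets the width of the intervals.

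Among the 58 peaks without input reads, the highest bounds were those of LRRC45, STXBP5, STXBP5-AS1, PAIP1 and PKD1. LRRC45, a centrosome linker gene, had 6.07 IP RPM and a ratio of at least 738. STXBP5 and its antisense transcript STXBP5-AS1 overlap on opposite strands, with bounds of at least 669 and 552, and their reads may not be separable without knowing how strand was used in counting. PKD1, the polycystin-1 gene, was at least 419-fold higher in the IP, and has near-identical pseudogene copies. PAIP1, a translation regulator that binds poly(A)-binding protein, had a bound of at least 513 at a peak 363 bases from its 5′ end, while the ratio of its summed peaks was 0.425. The exact 95% lower limits of these 5 ratios, which allow for counting error, were lower than the bounds from the floor, from 340.5 for PKD1 to 599.8 for LRRC45. PAIP1 thus had a peak with no input reads beside others with more input than IP.

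The lowest ratios were named by the smallest upper limit of the interval. PABPC1, the cytoplasmic poly(A)-binding protein, had a peak at chr8:100715474-100715523 of 31 IP RPM against 148 input RPM, a ratio of 0.209 (0.205 to 0.214). HSPA8, a constitutive chaperone, had 253 against 1043 RPM at chr11:123058271-123058642, a ratio of 0.243 (0.241 to 0.245). APOH, the plasma protein beta-2-glycoprotein I, had 150 against 626 RPM, a ratio of 0.239 (0.237 to 0.242). The RNA helicase DDX5 stood at 0.241, the splicing factor SRSF10 at 0.229 and U2SURP, a U2 snRNP-associated protein, at 0.234. ANLN, an actin-binding protein of cytokinesis, and TFPI, an inhibitor of blood coagulation, stood at 0.233 and 0.243. The kinase gene MAP4K4 was at 0.227 and the adaptor-complex regulator AP1AR at 0.23. In the authors' deposited table these same peaks had log2 enrichments from 0.24 to 1.96, all above 0. Their midpoints lay from 3752 bases (DDX5) to 184868 bases (MAP4K4) from the 5′ end, so none was a 5′ peak. Among all placed peaks, only 5.92% lay within 500 bases of the 5′ end.

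The genes with the highest summed IP RPM, ranked over peaks that name 1 gene, fell on both sides. NCL, encoding nucleolin, had the highest summed IP level of this ranking, 15098 RPM against 16937 RPM of input. Its gene ratio (summed IP RPM over summed input RPM of its peaks) was 0.891. A listed peak left out of the ranking alone had 18465 IP RPM. RRBP1, a ribosome-binding protein of the endoplasmic reticulum, had 10941 against 2628 RPM in a single peak of 4800 bases, a ratio of 4.16. MYH9, the non-muscle myosin heavy chain, had 9393 against 828 RPM, a gene ratio of 11.3. The cytosolic chaperones HSP90AB1 and HSP90AA1 had 7784 against 12144 and 7128 against 10888 RPM, ratios of 0.641 and 0.655.

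Over all 8815 genes with a peak of their own, the median gene ratio was 1.52. A ratio of 2 or more was reached by 3557 genes, or 40.4%, and 0.5 or less by 693, or 7.86%. The 20 gene lists are read against these shares and that median, and as descriptions of pooled libraries. Lists were not matched to all genes by input level, with which the peak ratio fell. In the highest decile of input RPM, 12.8% of peaks were at 2 or more and 30.4% at 0.5 or less. How far input level goes with the list medians was not tested.

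Of 17 genes of m1A handling and related enzymes, 12 were listed, with a median gene ratio of 2.05, 6 (50%) at 2 or more and none at 0.5 or less. That median was above that of all genes by 0.43 on the log2 scale, but below it by the median over each gene's peaks (-0.65) and by the authors' deposited enrichment (-0.06). TRMT6, the non-catalytic partner in the tRNA methyltransferase, had 3 peaks with a gene ratio of 0.544 (0.537 to 0.551). The tRNA methyltransferase genes TRMT10A and TRMT10B stood at 0.631 and 1.37. The mitochondrial tRNA methyltransferase TRMT10C stood at 1.91 and its partner HSD17B10 at 7.2. RRP8, which methylates ribosomal RNA, stood at 0.617. The demethylase gene ALKBH3 stood at 0.903 (0.699 to 1.16), an interval that holds 1, and FTO at 2.4 (1.81 to 3.2). ALKBH7, a mitochondrial member of the ALKBH family, had a single peak 112 bases from its 5′ end with 22.6 IP RPM against 0.422 RPM, a ratio of 53.7 (45.7 to 63.4). TRMT61A, TRMT61B, BMT2, ALKBH1 and YTHDC1 had no peak in the list.

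The YTHDF genes, whose proteins bind methylated RNA, each had several peaks. YTHDF3 had ratios of 11.9, 3.14, 2.11 and 1.01 at 4 peaks from the 5′ towards the 3′ end, the midpoint of the first lying 174.5 bases from the 5′ end. YTHDF2 had 4.72, 0.59, 1.1 and 0.563 in the same order. YTHDF1 had 4.57 at its first peak and 0.553, 1.17, 0.793, 0.494 and 0.491 at the other 5. In each of the 3 genes the first peak was the highest.

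Hepatocyte transcripts were spread over both sides. Of 16 hepatocyte markers, 15 were listed, with a summed input of 34043 RPM, and SERPINA1 had no peak. Their median gene ratio was 1.23, with 5 (33.3%) at 2 or more, 6 (40%) at 0.5 or less and 4 between. Those 4 were APOA2 (1.96), AHSG (1.35), TTR (1.23) and TF (0.562). The secreted proteins albumin (ALB, 0.414), alpha-fetoprotein (AFP, 0.397), the fibrinogen chains FGA (0.427), FGB (0.369) and FGG (0.357), and APOB (0.463) were the 6 low members. ALB had 4 peaks, with 81.6 IP against 149 input RPM at the first and 2508 against 5691 RPM at the last, and its 4 ratios lay between 0.297 and 0.547. The transcription factors FOXA2 (7) and HNF4A (3.14) were among the high members, as were APOA1 (3.23) and RBP4 (2.33). Input levels among the markers ran from 7.99 RPM for FOXA2 to 8882 RPM for FGB.

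Apolipoprotein and lipoprotein genes had the highest median gene ratio of the 20 lists, 2.7 over 14 listed genes. Of them 8 (57.1%) were at 2 or more and 3 (21.4%) at 0.5 or less. The rank depended on the summary. With each gene given by its strongest peak, their median stood 0.30 above that of all genes on the log2 scale. That was less than for m1A handling (0.39), lipid and sterol synthesis (0.53) and markers of other liver cell types (0.63). By the authors' deposited enrichment their median was 0.15 below that of all genes on the log2 scale (-0.15). APOE, a ligand of lipoprotein receptors, had a single peak of 5304 IP RPM against 626 RPM, a ratio of 8.48 (8.44 to 8.52), and APOC3, an inhibitor of lipoprotein lipase, stood at 8.28. At the other end, APOH stood at 0.259 and the lipid transfer protein gene MTTP at 0.493. Plasma proteins had a median of 0.857 over 28 genes, from protein C (PROC, 5.11) to coagulation factor XI (F11, 0.364).

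Ribosomal proteins and chaperones were among the 15 of 20 lists whose median lay below that of all genes by all 4 summaries tried. The 4 summaries draw on the same peaks and are not independent. Some of the 15 lay only a little below, such as the cytoskeleton list, at -0.11 by gene ratio and -0.05 by the strongest peak on the log2 scale. The 71 listed cytosolic ribosomal proteins of 78 had a median gene ratio of 0.787, with 6 (8.45%) at 2 or more and 15 (21.1%) at 0.5 or less, against 40.4% and 7.86% of all genes. This list was not matched to all genes by input level. RPS2 at 10.5 and RPS15 at 7 were the highest, and RPS20 at 0.281 and RPL26 at 0.285 the lowest. Ribosomal protein genes have many processed pseudogenes, so their values are uncertain where reads could be split among copies. The 18 listed heat shock and chaperonin genes had a median of 0.579, the lowest of the 20 lists. Of them 1 was at 2 or more, the co-chaperone DNAJB1 at 9.64, and 7 were at 0.5 or less, among them HSPA8 at 0.277 and HSPA4 at 0.321. Their medians were below that of all genes by the strongest peak, the median peak and the authors' deposited enrichment as well, at -1.54, -1.31 and -0.64 for chaperones and -1.04, -0.70 and -0.55 for ribosomal proteins.

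Genes of the cytoskeleton had a median of 1.4 over 27 members and reached up to 75.4 for PLEC, with 23 peaks from 38.3 to 781. The myosin gene MYH14 stood at 21, and the myosin light chain MYL12B at 0.326. Adhesion and matrix genes had a median of 0.998 and the same wide reach, with COL18A1 at 37.9 and the proteoglycan agrin (AGRN) at 30.2 against the epithelial adhesion molecule EPCAM at 0.326 and the integrin ITGB1 at 0.467. Lipid and sterol synthesis had a median of 1.35, with fatty acid synthase (FASN) at 13.8. The cholesterol pathway enzymes HMGCS1 and CYP51A1 stood at 0.334 and 0.388. Its median lay below that of all genes by 0.16 (-0.16) and above by 0.53 when each gene was given by its strongest peak.

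Mitochondrial respiration genes had a median of 1.37, from ATP5F1D at 16.9, a subunit of ATP synthase, to COX6C at 0.321, a subunit of cytochrome oxidase. Glycolytic genes had a median of 1.19, with PFKL at 6.04 and ENO1 at 0.508. Genes of folding and secretion in the endoplasmic reticulum had 1.15, with the stress kinase EIF2AK3 at 14.1 and the disulfide isomerase PDIA3 at 0.346. Splicing genes had 1.12, translation factors 1.06 and nucleolar genes 1.04. Within them stood SNRNP70 at 6.57 and SF3B1 at 0.327, EIF5A at 8.68 and EIF2S1 at 0.331, and RRP12 at 5.01 and WDR12 at 0.382. Cell cycle genes had a median of 0.919, with the replication helicase gene MCM2 at 11.2 and the ribonucleotide reductase gene RRM1 at 0.344.

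Host factors of HBV had a median of 1.2 over 21 listed genes of 26. Of them 8 (38.1%) were at 2 or more and 3 (14.3%) at 0.5 or less, against 40.4% and 7.86% of all genes. The liver transcription factor CEBPA had the highest ratio of the list, 13.9, over 8 peaks. SMC5 and NSMCE2, members of the SMC5/6 complex that restricts HBV transcription, stood at 0.448 and 0.416. The list's median was below that of all genes by ratio (-0.34) and above by the authors' deposited enrichment (0.06). Innate RNA sensing genes had a median of 0.729 over 13 genes, with IKBKE at 7.14 and the kinase TBK1 at 0.352. The entry receptor gene SLC10A1 had no peak in the list.

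Among 11 listed long non-coding RNAs the median was 1.03. NEAT1, the scaffold of paraspeckles, stood at 3.27 and TUG1 at 7.55, while the small nucleolar RNA host genes SNHG6 and GAS5 stood at 0.402 and 0.537. MALAT1, an abundant nuclear RNA, had 4927 IP against 4596 input RPM, a gene ratio of 1.07, and 6 peaks from 1.1 to 0.256. All 6 of its peaks overlapped listed peaks on the opposite strand, named TALAM1, so reads of the pair may be mixed.

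Markers of other liver cell types were mostly without a peak. Of 26 markers of stellate, endothelial, immune and bile duct cells, 19 had none, among them COL1A1, PECAM1, VWF, PTPRC and KRT7, and the 7 listed had a summed input of 611 RPM, of which 538 belonged to LYZ. Their median gene ratio was 2.23, above that of all genes by 0.55 on the log2 scale, by 0.06 with the median over each gene's peaks, and below it by the authors' deposited enrichment (-0.46).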

How the data were processed

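The authors deposited m1A peak lists with RPM values of the pooled IP and input libraries, a log2 enrichment and a p-value per peak, on hg38, per the file headers and labels. The deposited p-value was used only for its largest value. Per the labels' protocols, stranded libraries carried 8-base molecular identifiers, and whether reads were collapsed by them is not stated. HISAT2, StringTie and DESeq appear in the submitters' processing notes with no role stated, and the sources used here do not name the peak caller.

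Divided by the value of 1 read, 100% of RPM values came out whole (tolerance 0.1), at 280714967 IP and 364905848 input reads for m1A, so intervals were computed from reads with scipy 1.17.1. Counts per library were not analysed here. Positions are genomic midpoints, introns included, within RefSeq GRCh38.p14 gene spans (97.6% of peaks placed). Peaks naming several genes (553) were left out of gene ratios and of the choice of named genes. Input of 0 was set to a floor of 3 reads. Named genes are the 10 highest lower limits (10 or more input reads), 5 highest bounds, 10 smallest upper limits, 5 highest summed IP, 5 with most peaks, all m1A handling genes, and up to 2 highest and 2 lowest per list (50 or more input reads). Some genes that this rule names are left out of the text. Other list members, the sequence starts and the MALAT1 pair were named after their values were seen. The members and lists were chosen with earlier results of these data known. The interval and depth computations were tested on simulated data.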

Additional observations from a re-analysis of the deposited data

How the results depend on the processing

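No paired analysis was possible because the values are pooled over the libraries of a group, and for the same reason no replicate could be left out. The count of 13288 m1A peaks at a ratio of 2 or more was 7982 at 4-fold and 27088 at a log2 enrichment of 1 or more in the authors' deposited table. The count of 3197 at 0.5 or less was 5884 at 1.5-fold, 39 at 4-fold, 8033 after centring on the median and 0 by the authors' deposited enrichment. A two-sided exact binomial test per peak (Benjamini-Hochberg, added after seeing the data), which compares pooled libraries and not conditions and covers counting error only, in a list that already holds only peaks the authors called enriched, put 18008 peaks higher and 8399 lower. The median log2 ratio of 0.74 was 0.42 with 50 or more input reads and 2.06 by the authors' deposited enrichment. The 5′ difference of 2.25 was 1.96 with a window of 1000 bases and 2.11 with 1 peak per gene. In settings added after seeing the data it was 1.48, 1.70, 1.87 and 2.06 in 4 quintiles of input density, and 0.20 by the authors' deposited enrichment. Within genes, also added, the median of first minus last peak was 0.97 over 6299 genes, wherever the first peak lay. In the 1242 genes whose first peak lay within 500 bases of the 5′ end, that median was 2.37. Of 20 lists, 3 had a median above that of all genes, and 1 by the authors' deposited enrichment (added), and 116 list members at 2 or more became 59 at 4-fold. The GC correlation of 0.36 was 0.44 with midpoints within 500 bases and 0.024 by the authors' deposited enrichment (added). The difference in share at 2 or more between m1A and m5C, 12.6 points, reversed to -1.02 after centring, and that with m7G, 7.17, became 2.07. The cause of these shifts was not tested, beyond what the thresholds themselves set. Depth limits the low-input peaks most, where few input reads give wide intervals.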
